A study of Mus musculus with 5 samples.

Results

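The S100 genes encode small calcium-binding proteins with paired EF-hand motifs, and 8 of them (S100a1, S100a4, S100a6, S100a8, S100a9, S100a10, S100a11 and S100a13) were examined in sorted mouse brain dendritic cells (DCs) and bone marrow monocytes. A gene was read from every probe set that the platform annotation gives to that 1 symbol alone, and as the mean of those probe sets. By this rule 7 of the 8 genes were measured, by 10 probe sets, among 18193 genes in all. S100a11 was not measured, because its single probe set is annotated to 3 symbols.

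Expression was measured on Affymetrix arrays, with 1 array per sample. The 2 brain DC samples were sorted from brain as CD11c-positive cells with high CD45 and no lineage marker. Their donor mice carried B16-Flt3L tumours, injected under the skin 12 days before harvest. B16 is a melanoma line, here making the dendritic cell growth factor Flt3 ligand. The 3 monocyte samples were CD115-positive cells of high CD11b and low side scatter from bone marrow, with no treatment in their labels. All mice were female C57BL/6 aged 6 to 8 weeks. Separate animals are not stated in the labels, so the spread behind each p-value may be technical spread alone. Cell type, tissue and tumour treatment differ between the groups in the same way and cannot be told apart. Values are log2, relative to a baseline for each probe set that the labels do not define, so they compare arrays and not the absolute levels of genes. Each difference is the brain DC mean minus the monocyte mean on the log2 scale, followed by its SE from a limma fit over all 18193 genes; a gene is called at a Benjamini-Hochberg adjusted p under 0.05. In bulk samples, more cells of a kind and more RNA per cell cannot be told apart.

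S100 proteins mostly act as dimers that expose a binding surface when calcium rises, and each binds its own set of partner proteins. S100A8 and S100A9 pair to form calprotectin, a major cytosolic protein of neutrophils and monocytes that binds zinc and manganese and, when released, signals through Toll-like receptor 4 and RAGE. S100A10 is an exception that no longer binds calcium and sits in a tetramer with annexin A2, while S100A4 and S100A6 are linked to the cytoskeleton and cell movement.

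All 8 genes lie on mouse chromosome 3, each with another S100 gene as a neighbouring protein-coding gene. S100a8 and S100a9 are such neighbours in RefSeq, as are S100a10 and S100a11, and S100a1 and S100a13. RefSeq promoter windows (build GRCm38.p6) were available for 7 of the 8 genes, all but S100a10. The sequences of S100a8 and S100a9 are shown because S100a9 was higher in brain DCs and S100a8 was not called, and that of S100a1 and S100a13 because both genes were higher in brain DCs. The 250 bases before the S100a8 start lie at chr3:90668821-90669070 on the plus strand, and those before the S100a9 start at chr3:90695722-90695971 on the minus strand. Each is printed 5′ to 3′ on the strand of its gene, with capitals for any of 4 motifs searched on both strands. They were the TATA box, spelled TATAAA, a letter pattern for C/EBP factors, spelled TTGCNNAA, one for the factor PU.1, spelled GAGGAA, and the GC box, spelled GGGCGG.
S100a8: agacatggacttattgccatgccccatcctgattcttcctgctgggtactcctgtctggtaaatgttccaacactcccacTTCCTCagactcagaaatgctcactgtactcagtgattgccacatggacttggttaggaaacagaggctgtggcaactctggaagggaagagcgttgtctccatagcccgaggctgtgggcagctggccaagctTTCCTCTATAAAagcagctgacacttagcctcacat
S100a9: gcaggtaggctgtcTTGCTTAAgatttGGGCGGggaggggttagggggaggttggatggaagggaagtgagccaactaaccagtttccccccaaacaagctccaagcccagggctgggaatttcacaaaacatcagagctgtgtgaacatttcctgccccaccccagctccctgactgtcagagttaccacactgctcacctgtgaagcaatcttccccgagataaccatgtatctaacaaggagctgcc
The S100a8 window held a TATA box starting 30 bases before the start and 2 matches to the PU.1 letters, at 170 and 36 bases, the second directly beside the TATA box without overlap. The S100a9 window held 1 C/EBP match, 236 bases before the start, and 1 GC box at 223 bases. Of 32851 RefSeq windows of the same length, 12.4% held TATAAA, 9.56% TTGCNNAA, 23.3% GAGGAA and 32.7% GGGCGG, so these matches are common. They are a description only, and whether any of them is bound was not tested. Of the 7 windows of these genes, 2 held TATAAA (those of S100a4 and S100a8), 1 TTGCNNAA, 2 GAGGAA and 2 GGGCGG.

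S100a1 and S100a13 are transcribed away from each other, and their RefSeq starts lie so close that only 104 bases separate them, at chr3:90514331-90514434. This stretch is printed on the plus strand, 5′ to 3′ in the direction of S100a13, and none of the 4 motifs occurs in it.
S100a1/S100a13: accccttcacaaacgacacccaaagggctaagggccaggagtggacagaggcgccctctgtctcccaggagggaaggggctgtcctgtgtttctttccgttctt
Of these bases 58.7% are G or C, against a median of 52.4% over all 250-base windows.

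The arrays were first set against their labels. Over all genes tested, 16.9% were called higher and 16.9% lower. All 10 measured conventional DC markers were called higher in brain DCs (median difference 4.03), and all 8 measured monocyte markers were called lower (median -2.53). Of the sort genes, Itgax (CD11c) differed by 5.02, Itgam (CD11b) by -2.28, Csf1r (CD115) by -1.40 and Ptprc (CD45) by -0.63. All 7 measured microglial markers were also higher in brain DCs (median 2.09), as were 5 of 7 endothelial, 3 of 5 natural killer cell, 2 of 7 astrocyte, 2 of 5 oligodendrocyte, 2 of 6 choroid plexus, 1 of 4 B cell, 1 of 5 T cell and 1 of 2 erythroid markers, the B and T cell shares being near the 16.9% of all genes; 0 of 6 neuronal and 0 of 5 melanoma markers were called in either direction. Averaged over each list, the brain DC and monocyte arrays ranged from 1.52 to 1.73 and -0.87 to -0.64 for microglial markers, from 1.21 to 1.44 and -0.98 to -0.72 for natural killer cell markers, from 1.18 to 1.36 and -0.41 to -0.23 for choroid plexus markers, from 0.38 to 0.59 and -0.20 to -0.17 for astrocyte markers, and from 0.32 to 0.52 and -0.48 to -0.35 for endothelial markers. The choroid plexus and astrocyte means rest largely on 1 gene each. Ttr differed by 7.22 ± 0.12, against a median of 0.49 over the choroid plexus markers, of which 4 of 6 were not called. Aldoc differed by 2.61 ± 0.23, against a median of 0.25 over the astrocyte markers, of which 5 of 7 were not called. Of 14 measured neutrophil markers 1 was higher and 8 were lower, with list means of 0.75 on both brain DC arrays and 1.87, 2.85 and 2.83 on monocyte replicates 1 to 3. The 24 probe sets of poly-A spike-in RNA were all higher on the brain DC arrays (median 2.59), as were all 18 of the hybridisation spike-ins (median 1.04). The part of these other cells and of the labelling in the S100 differences was not tested.

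In brain DCs 4 of the 7 measured S100 genes were called higher: S100a9, S100a10, S100a1 and S100a13. None was called lower (0 of 7), and S100a4, S100a6 and S100a8 passed in neither direction. The shares over all genes tested were 16.9% higher and 16.9% lower. The median difference of the 7 genes was 0.61, against 0.09 over all genes. In 5 of the 7 genes every brain DC array lay above every monocyte array, while 35.1% of all genes had this pattern.

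**Figure D1:**
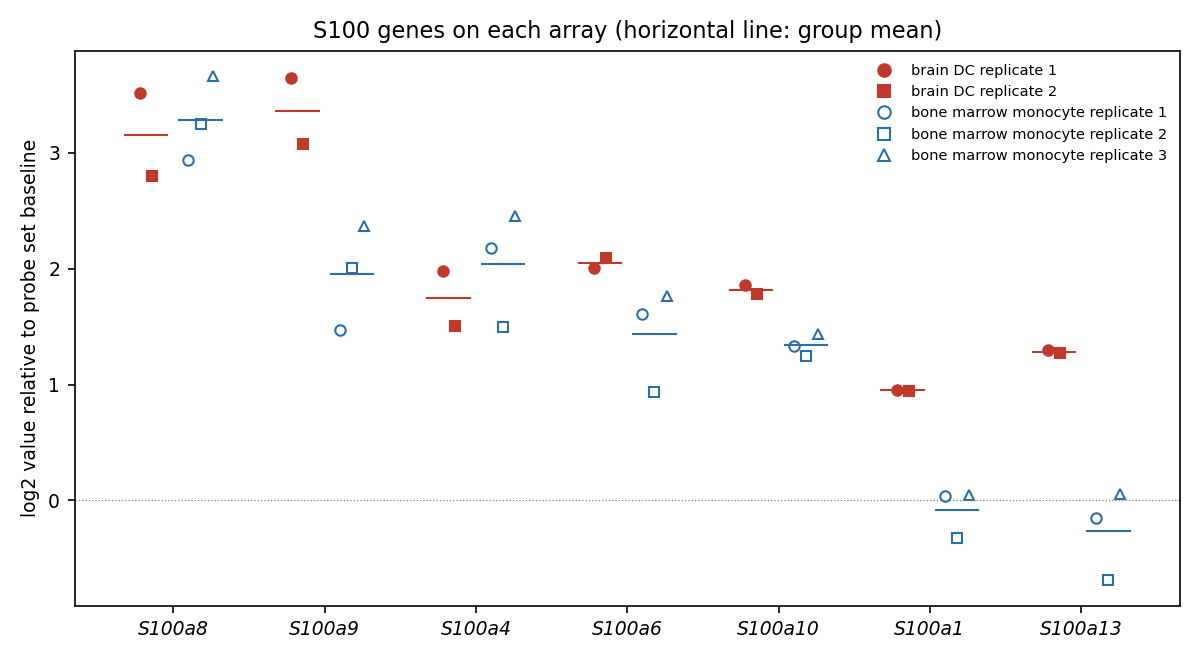
Log2 values relative to the probe set baseline (y axis) of the 7 measured S100 genes (x axis), with brain DC arrays (filled, n = 2) left of bone marrow monocyte arrays (open, n = 3) and lines at group means. The groups overlap for S100a8 and S100a4, and are apart for S100a9, S100a6, S100a10, S100a1 and S100a13.

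The calprotectin subunits were above baseline on every array, and S100a9 was called higher in brain DCs while S100a8 was not called. S100a8 was at 3.52 and 2.80 on the brain DC arrays, against 2.94, 3.25 and 3.66 on the monocyte arrays. The groups overlapped, with the lowest value on brain DC replicate 2 and the highest on monocyte replicate 3. The difference was -0.12 ± 0.27 (SE, 95% interval -0.75 to 0.50, limma adjusted p = 0.755), so a change of S100a8 was not detectable with these arrays, and its sign turned under some of the alternatives. S100a8 has 1 probe set, of the type that can share probes with other transcripts.

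S100a9 was at 3.65 and 3.08 on the brain DC arrays, against 1.47, 2.01 and 2.37 on the monocyte arrays. Both brain DC arrays lay above all monocyte arrays. Its level in brain DCs was 2.66-fold that in monocytes (1.41 ± 0.28, 95% interval 0.76 to 2.06, limma adjusted p = 0.00694). With a single brain DC array left after replicate 1 was removed, the difference was 1.13 (limma adjusted p = 0.0495), and in the fit over all probe sets S100a9 lost its call with that array left out (limma adjusted p = 0.0576).

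S100a8, S100a9, S100a4, S100a6 and S100a10 were above their baselines on all arrays of both groups, whereas the lowest values of S100a1 (-0.32) and S100a13 (-0.69) were below theirs. Which samples set the baselines is not known here.

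Because both subunits are measured on the same array, their difference was taken within each array. S100a8 minus S100a9 was -0.13 and -0.28 on the brain DC arrays, against 1.47, 1.23 and 1.29 on the monocyte arrays. The groups did not overlap, with means of -0.20 ± 0.11 in brain DCs (SD, n = 2) and 1.33 ± 0.12 in monocytes (SD, n = 3). The groups differed by -1.54, and the exact two-sided permutation p was 0.1, the smallest that 2 against 3 arrays can give. This test cannot pass a threshold of 0.05, so whether the group difference of S100a8 differs from that of S100a9 is not settled by it. The arrays of each group had the same order for both genes: brain DC replicate 1 was above replicate 2 for both genes, and among monocytes replicate 1 was the lowest and replicate 3 the highest for both. The level of 1 subunit against the other cannot be read from these values, since each probe set has its own baseline.

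Neutrophil granule genes are shown beside the calprotectin pair, because neutrophils and their precursors carry the same subunits. Of 12 measured granule and antimicrobial genes, 8 were called lower in brain DCs and 0 higher, against 16.9% in each direction over all genes, with a median of -1.27, and the remaining 4 were not called. The lower ones with the largest differences were the primary granule genes Mpo, myeloperoxidase (-4.64 ± 1.02), Prtn3, proteinase 3 (-4.53 ± 0.34) and Ctsg, cathepsin G (-3.57 ± 0.48), and the chitinase-like gene Chil3 (-3.78 ± 0.13).

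The 4 genes that were not called were Camp, Ngp, Ltf and Lcn2. They do not stand for neutrophil genes in general. Among the 14 measured neutrophil markers, 8 were lower, 1 was higher and 5 were not called. Outside the granule list, the markers Cd177 (-5.67 ± 0.15) and Mmp8 (-4.76 ± 0.22) were called lower. Camp, the cathelicidin gene, was at 3.17 and 1.27 on the brain DC arrays, against -0.45, 1.23 and 1.89 on the monocyte arrays. Ngp, neutrophilic granule protein, was at 1.92 and 1.91 in brain DCs, against -1.18, 1.61 and 1.56 in monocytes. Ltf, lactoferrin, was at 0.54 and 1.57 in brain DCs, against -0.93, 0.82 and 0.49 in monocytes, and Lcn2, lipocalin 2, at 2.86 and 3.53 in brain DCs, against 3.39, 3.40 and 3.21 in monocytes. Camp, Ltf and Lcn2 overlapped between the groups and Ngp did not.

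Monocyte replicate 1 stood apart in some of these genes. Mpo was at 1.81 there, against 5.72 and 5.22 on monocyte replicates 2 and 3. Camp, Ngp, Ltf, Elane, Prtn3 and Ctsg also had their lowest monocyte values there. Lcn2, Chil3, Cd177 and Mmp8 did not. Chil3 was at 8.09, 7.94 and 7.94 on monocyte replicates 1 to 3, Cd177 at 6.86, 6.59 and 6.96, and Mmp8 at 4.87, 4.19 and 4.90. S100a8 and S100a9 were at their lowest monocyte values on monocyte replicate 1. Without monocyte replicate 1 the S100a9 difference was 1.17 (limma adjusted p = 0.0138) and that of S100a8 was -0.30 (limma adjusted p = 0.465). Camp and S100a9 were both higher on brain DC replicate 1 than on replicate 2, whereas Ltf and Lcn2 were higher on replicate 2. What share of the S100a8 and S100a9 signal came from neutrophil-lineage RNA was not tested.

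**Figure D2:**
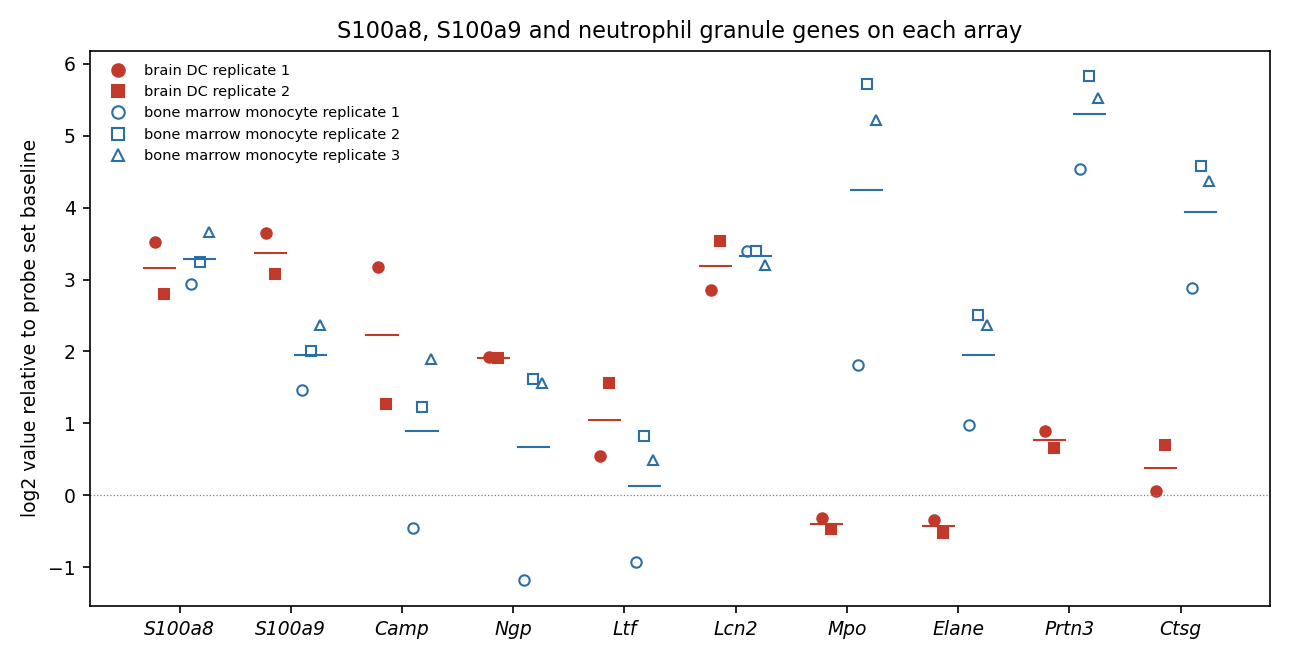
Log2 values relative to the probe set baseline (y axis) of S100a8, S100a9 and 8 neutrophil granule genes (x axis) on each array, with brain DCs filled and left, monocytes open and right, and lines at group means. Mpo, Elane, Prtn3 and Ctsg are low in brain DCs and high in monocytes, while Camp and Ltf overlap as S100a8 does.

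S100a4 and S100a6, which are linked to cell movement and the cytoskeleton, were not called. S100a4, a partner of non-muscle myosin IIA, was at 1.98 and 1.51 on the brain DC arrays, against 2.18, 1.501 and 2.45 on the monocyte arrays. The groups overlapped and monocyte replicate 2 was the lowest of all arrays, next to brain DC replicate 2. The difference was -0.30 ± 0.28 (95% interval -0.96 to 0.36, limma adjusted p = 0.456), and it was at 0.0089 after quantile normalisation.

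S100a6, calcyclin, was at 2.01 and 2.09 on the brain DC arrays, against 1.61, 0.94 and 1.76 on the monocyte arrays. The groups did not overlap, but monocyte replicate 2 lay well below the other monocyte arrays. The difference was 0.61 ± 0.24 (95% interval 0.05 to 1.17) and missed the threshold after adjustment (limma adjusted p = 0.0875). It passed with quantile normalisation (0.90, limma adjusted p = 0.027). Without monocyte replicate 2 the difference was 0.36 (limma adjusted p = 0.117).

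S100a10, the annexin A2 partner also known as p11, was at 1.86 and 1.78 on the brain DC arrays, against 1.33, 1.25 and 1.44 on the monocyte arrays. Both brain DC arrays were above all monocyte arrays. The gene mean differed by 0.48 ± 0.13 (limma adjusted p = 0.0229), a call for higher S100a10 in brain DCs, but this value joins 3 probe sets that did not go together. It was 0.73 after quantile normalisation (limma adjusted p = 0.0042). With the median of the probe sets in place of their mean it was 0.95 (limma adjusted p = 0.00181). That median came from 1439348_at on brain DC replicate 1 and 1416762_at on replicate 2, but from 1456642_x_at on all monocyte arrays. Each probe set has its own baseline, so the 0.95 compares different probe sets and does not show a larger difference. Probe set 1416762_at was at 2.33 and 1.95 in brain DCs, against 0.61, 0.43 and 1.05 in monocytes, and was called higher (1.44 ± 0.22, limma adjusted p = 0.0029 over all probe sets).

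The other S100a10 probe sets showed no such gap. Probe set 1439348_at was at 2.02 and 2.33 in brain DCs, against 2.25, 2.45 and 2.17 in monocytes (-0.11 ± 0.17, 95% interval -0.52 to 0.29, limma adjusted p = 0.68). Probe set 1456642_x_at was at 1.23 and 1.05 in brain DCs, against 1.13, 0.86 and 1.10 in monocytes (0.11 ± 0.16, limma adjusted p = 0.664). In both, the groups overlapped, so the S100a10 call rests on 1 of its 3 probe sets. The gene lost its call in 4 of the 5 fits that left out 1 array, with limma adjusted p of 0.0895 without brain DC replicate 1, 0.0511 without brain DC replicate 2, 0.0686 without monocyte replicate 1 and 0.0666 without monocyte replicate 2.

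S100a1 and S100a13, whose starts flank the short stretch printed above, were both higher in brain DCs. S100a1, best known in heart and skeletal muscle, where it acts on calcium cycling, was at 0.96 and 0.95 on the brain DC arrays, against 0.04, -0.32 and 0.05 on the monocyte arrays. It was 2.04-fold higher (1.03 ± 0.15, 95% interval 0.67 to 1.39, limma adjusted p = 0.00194). The close brain DC values are means of 2 probe sets whose replicates went opposite ways: 1417421_at was at 0.75 and 1.45 and 1419814_s_at at 1.17 and 0.44 on brain DC replicates 1 and 2.

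Read alone, 1417421_at was called (1.31 ± 0.25, limma adjusted p = 0.00693 over all probe sets) and 1419814_s_at was not (0.75 ± 0.24, limma adjusted p = 0.0513). The second was called in 3 of 9 alternatives: after quantile normalisation (limma adjusted p = 0.0391), with the replicate block (limma adjusted p = 0.031) and without brain DC replicate 2 (1.11, limma adjusted p = 0.0102). Without brain DC replicate 1 its difference was 0.39 (limma adjusted p = 0.247). In each of them both brain DC arrays lay above all monocyte arrays. The small SD of S100a1 in brain DCs, 0.0078, is thus smaller than the spread of either probe set (SD 0.50 and 0.51, n = 2).

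S100a13, which takes part in the export of fibroblast growth factor 1 and interleukin 1 alpha, was at 1.30 and 1.27 on the brain DC arrays, against -0.15, -0.69 and 0.06 on the monocyte arrays. All brain DC values were above all monocyte values, and monocyte replicate 2 was the lowest array. It had the largest difference of the 7 genes, 2.92-fold (1.55 ± 0.22, 95% interval 1.04 to 2.05, limma adjusted p = 0.00149). Its call and that of S100a1 held in all 11 alternatives, with limma adjusted p from 0.00039 to 0.0116 for S100a13 and from 0.00114 to 0.0127 for S100a1.

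The low value on monocyte replicate 2 was shared by 5 of the 7 genes (S100a4, S100a6, S100a10, S100a1 and S100a13), for which it was the lowest monocyte array, and monocyte replicate 3 was the highest monocyte array for all 7.

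**Figure D3:**
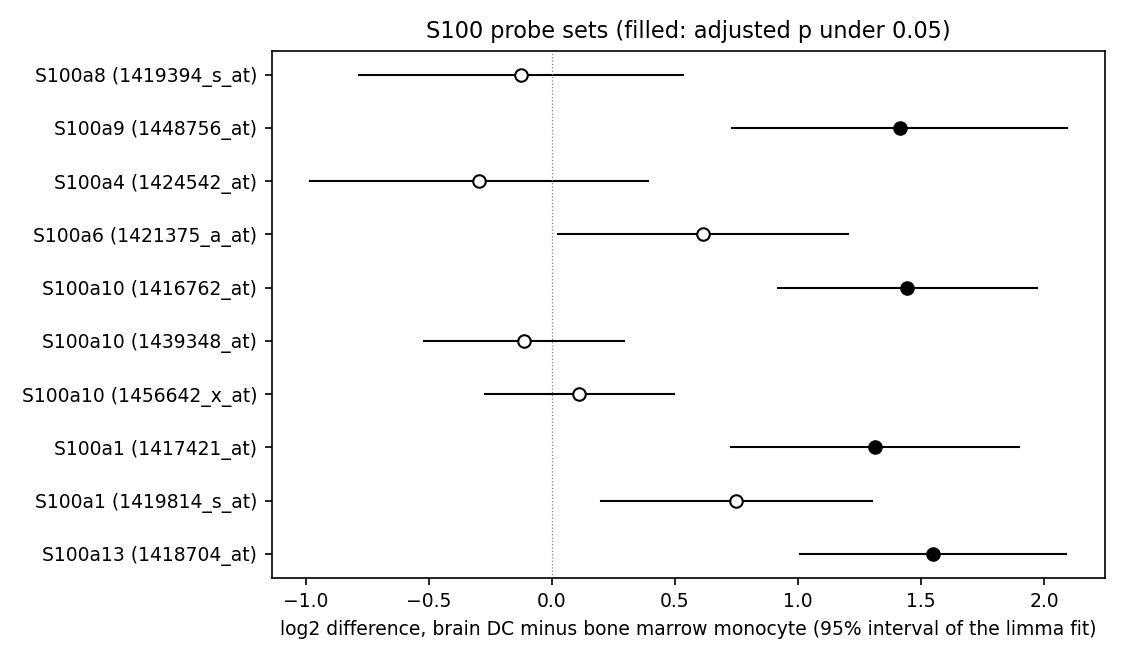
Log2 difference, brain DC minus bone marrow monocyte (x axis, points with 95% intervals of the limma fit over all probe sets, n = 2 and 3 arrays), for each of the 10 S100 probe sets (y axis), filled where called. Filled points are the probe sets of S100a9 and S100a13, 1416762_at of S100a10 and 1417421_at of S100a1, all called higher.

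At the level of probe sets, 4 of the 10 were called higher and 0 lower, against 12.2% higher and 15.5% lower among the 45037 probe sets tested.

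Of the other S100 genes, 6 of 8 listed had a value, and 1 was higher, 0 were lower and 5 were not called, a higher share near the 16.9% of all genes, with a median of 0.36. Without brain DC replicate 2 the higher count was 2. S100a16 was at 0.37 and 0.45 on the brain DC arrays, against -0.15, -0.10 and -0.16 on the monocyte arrays, and was called higher (0.54 ± 0.12, limma adjusted p = 0.0106). S100b, the glial family member, was at 0.59 and 0.12 in brain DCs, against 0.17, 0.02 and -0.19 in monocytes, with overlapping groups (0.35 ± 0.18). S100g was at 0.36, S100a5 at 0.41, S100a14 at 0.03 and S100a3 at -0.04 in difference, and none of them was called.

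Of 22 measured genes of proteins that bind or work with S100 proteins, 10 were higher, 0 lower and 12 not called, against 16.9% called in each direction over all genes, with a median of 0.18. In 12 of the 22 every brain DC array lay above every monocyte array and in 4 below. Of all 18193 genes, 6393 (35.1%) lay above in this way and 4551 below. Without _x_at and _s_at probe sets the lower count was 1. The largest differences were in Il1a, the interleukin 1 alpha gene whose product leaves cells with S100A13 (2.98 ± 0.18), Dbn1, the actin-binding protein drebrin (1.94 ± 0.16), Plaur, the urokinase receptor (1.16 ± 0.15), and Plat, tissue plasminogen activator, which binds the S100A10 complex (1.08 ± 0.12). Among partners by role, Cacybp, the calcyclin-binding protein, was at 0.73 ± 0.23 and called higher. Ahnak, a scaffold of the S100A10 and annexin A2 complex, was at 0.66 ± 0.13 and called higher.

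Of 11 measured annexin genes, 1 was higher, 2 were lower and 8 were not called, with a median of -0.15; these shares are near those of all genes (16.9% in each direction). Anxa2, the partner of S100A10, was at 0.86 and 0.97 on the brain DC arrays, against 1.03 to 1.31 on the monocyte arrays. The groups did not overlap, with brain DCs the lower, and the gene was not called (-0.27 ± 0.14). Anxa1, the partner of S100A11, was at -0.02 ± 0.18 in difference and not called. Anxa3 (-2.66 ± 0.13) and Anxa9 (-0.54 ± 0.13) were called lower and Anxa6 (0.69 ± 0.12) higher. The lower count was 1 without monocyte replicate 1. It was 3 without monocyte replicate 3, with the replicate block and without _x_at and _s_at probe sets.

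Of 10 measured receptors and co-receptors of S100A8 and S100A9, 4 were higher, 1 was lower and 5 were not called, against 16.9% in each direction over all genes, with a median of 0.10. Cd36, which takes up fatty acids, was higher by 5.31 ± 0.18, Cd14, a co-receptor of Toll-like receptor 4, by 2.31 ± 0.36, Bsg, which encodes the S100A9 receptor CD147, by 2.12 ± 0.13, and Alcam by 1.16 ± 0.17. Tlr4 was the lower one, at 0.54 and 0.74 on the brain DC arrays, against 1.64, 1.74 and 1.48 on the monocyte arrays (-0.98 ± 0.14). Its partner Ly96 was at -0.61 ± 0.27 in difference, and Ager, which encodes RAGE, at -0.23 ± 0.14, neither of them called. Without monocyte replicate 2 the lower count was 2.

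In neutrophils calprotectin carries arachidonic acid to the NADPH oxidase, and of 8 measured NADPH oxidase and leukotriene enzyme genes 0 were higher, 4 lower and 4 not called (median -0.41), against 16.9% lower over all genes. The lower ones were Cybb, the catalytic oxidase subunit (-1.99 ± 0.13), Pla2g4a, the phospholipase that frees arachidonic acid (-1.52 ± 0.14), Alox5 (-0.74 ± 0.14) and Ncf4 (-0.48 ± 0.13).

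Of 8 measured transcription factors known to act on S100a8 and S100a9 or on myeloid maturation, 1 was higher, 2 were lower and 5 were not called (median -0.28), not far from the 16.9% in each direction over all genes. Spi1, which encodes PU.1, was higher (0.80 ± 0.17), and Hif1a (-0.95 ± 0.13) and Cebpd (-0.79 ± 0.13) were lower. Cebpa (-0.37 ± 0.15), Cebpb (-0.14 ± 0.31), Stat3 (-0.20 ± 0.16), Gfi1 (-0.68 ± 0.55) and Klf4 (0.02 ± 0.16) were not called. Without brain DC replicate 2 the higher count was 0.

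Of 24 measured other EF-hand calcium sensors, 7 were higher, 1 was lower and 16 were not called, against 16.9% called in each direction over all genes, with a median of 0.14. The higher ones included Aif1, the IBA1 gene of microglia and macrophages (3.41 ± 0.16), Ehd1, which recycles endosomes (1.61 ± 0.22), and Nucb2 (1.57 ± 0.17), while Capn2, a calpain protease, was lower (-1.67 ± 0.19). Aif1 moved with the microglial markers given above, and their part in it was not tested. Without monocyte replicate 1 the higher count was 4, and without brain DC replicate 2 the lower count was 3.

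**Figure D4:**
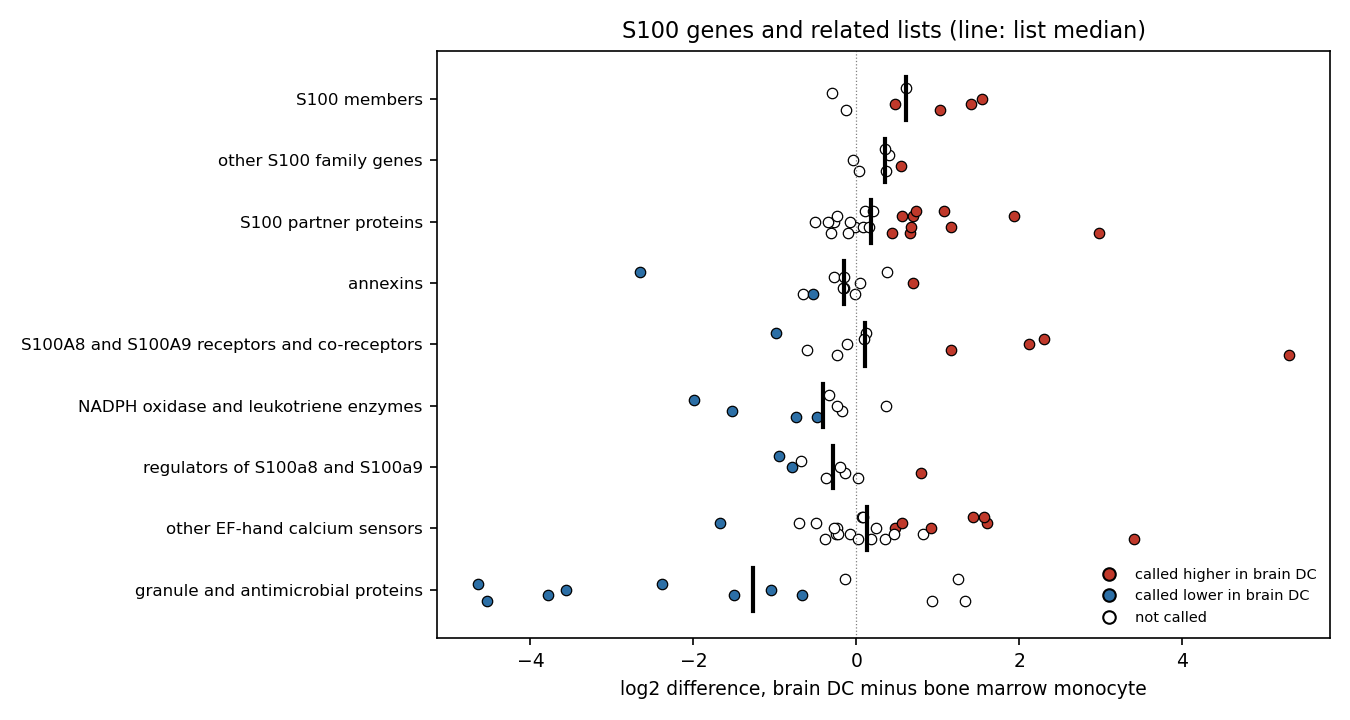
Log2 difference, brain DC minus bone marrow monocyte (x axis), of each measured gene in the S100 list and 8 related lists (y axis), filled red where called higher, blue where called lower and open where not called, with a line at each list's median. The medians run from -1.27 for granule and antimicrobial proteins to 0.61 for the S100 genes.

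Profiles most like each S100 gene were found by the root mean square distance over the 5 arrays after each gene's mean was subtracted. The nearest gene to S100a13 was Srgn, at a distance of 0.02, followed by Ap2s1 (0.07) and Rpl27 (0.07). Srgn encodes serglycin, a granule proteoglycan, and was at 0.41 and 0.38 on the brain DC arrays, against values from -1.54 to -0.81 on the monocyte arrays. S100a9 had no gene that close, its nearest being Smim8 (0.13), Tsacc (0.17) and Snrnp27 (0.20). The nearest to S100a8 were Lrif1 (0.08), Dek (0.09) and Phf12 (0.10). With 5 arrays and 18193 genes such matches are a description only.

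The nearest to S100a1 were Tmem231 (0.02), Ndufb5 (0.04) and Rps19bp1 (0.05), and to S100a10 Mpp2 (0.02), Gemin8 (0.03) and Cnih4 (0.03). The nearest to S100a6 were Gm5617 (0.04), Rnf123 (0.06) and Xaf1 (0.09), and to S100a4 Mettl9, Heatr1 and Rnaseh2c (0.14 each). Among the 21 pairs of S100 genes, S100a6 and S100a10 were the closest (0.24) and S100a4 and S100a9 the farthest (0.92), and S100a8 and S100a9 stood at 0.76. No S100 gene was among the 3 nearest genes of another.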

How the data were processed

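Values for 5 arrays of sorted mouse cells were taken from the deposited table. The submitters' processing notes name RMA for the authors' deposited log2 values; its version and the centring are not stated, and log base and centring are inferred from the values (largest range over the 5 arrays 8.86 and array medians from -0.05 to 0.00). Detection above background cannot be read from such values, so no filter on dim probe sets was run. Of 45101 probe sets, 64 controls were left out; 34945 had 1 symbol, 932 several and 9160 none. A gene was the mean of its one-symbol probe sets.

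Differences were fitted with limma 3.58.1 in R 4.3.3 (lmFit, eBayes, no covariate), over 18193 genes or 45037 probe sets, with Benjamini-Hochberg adjustment. Residual degrees of freedom were 3 and prior degrees of freedom 4.43; the number of arrays limits the precision. In simulated data on 18193 genes, with 200 changed per draw, 55.4% of changes of 1 and 90.2% of changes of 2 on the log2 scale were called. In the real data 3068 genes were called higher and 3083 lower. With so few changed genes the adjustment is stricter in the simulation, so these shares do not give the power of the reported fit.

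The S100 genes, the 8 related lists, the 14 marker lists and the alternatives were chosen with earlier results of these data known. Named were the S100 genes, up to 4 called genes of each related list with the largest difference, uncalled genes where fewer than 4 were called, the sort genes, and the 3 nearest profiles of each S100 gene. Tlr4, Ly96 and Ager were named outside this rule. Cacybp, Ahnak, Elane, Cd177, Mmp8, Ttr, Aldoc and the uncalled granule genes were added with their values in view.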

Additional observations from a re-analysis of the deposited data

Results flagged for a closer look

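Probe set 1460351_at is annotated to S100a11 together with Gm12854 and S100a11-ps, so it was in no comparison of genes and is given to none of the 3 symbols. It drew attention because its signal on every brain DC array exceeded that on every monocyte array: 0.66 and 1.03 in brain DCs, against 0.15, 0.07 and 0.36 in monocytes. The difference was 0.65 ± 0.18 (limma adjusted p = 0.0335 over all probe sets). Groups of 2 and 3 arrays are too small to look for outlying samples.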

How the results depend on the processing

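The count of S100 genes higher in brain DCs was 4 as reported and from 3 to 5 in 11 alternatives, and the count of lower ones was 0 in all of them; leaving out 1 array gave 3 to 4. S100a9, S100a1 and S100a13 kept their direction and their call in all 11 as genes, and the S100a9 probe set lost its call without brain DC replicate 1. Quantile normalisation turned the sign of S100a4 (0.0089; its probe set 1424542_at likewise 0.0089) and of S100a10 probe set 1439348_at (0.16), none of them called. S100a8 turned to 0.066 with the replicate block, and between -0.49 and 0.24 when 1 array was left out, never called; probe set 1419394_s_at, its only one, turned with it (0.066), and 1439348_at lay between -0.27 and 0.042. S100a8 minus S100a9 lay between -1.63 and -1.46 in 8 alternatives, without a value where _x_at and _s_at probe sets were dropped, which leaves S100a8 with none. Replicate numbers are shared by the groups but are not known to pair samples. Deviations of same-numbered arrays correlated at 0.03 and 0.09, and those of differently numbered arrays at -0.09, 0.07, -0.03 and -0.07. The deviations of 2 brain DC arrays mirror each other, so these correlations cannot decide on pairing. With the replicate block S100a6 was called (0.77, limma adjusted p = 0.0266), the count of higher S100 genes was 5, 2 granule genes were higher and 2 EF-hand genes lower. Replicate 3 exists for monocytes alone, so the block takes up that array. Its S100 differences equal those without monocyte replicate 3, where S100a6 was not called (0.77, limma adjusted p = 0.052). These 2 alternatives are therefore not independent. Without a brain DC array the other is assumed to vary like the monocytes. The median of all genes was 0.09 as deposited, 0.07 after quantile normalisation and 0.05 after centring.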
